A study of Mus musculus with 23 samples.

Results

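VQ-D2 is a mouse myeloma line kept by transplantation, and its expression was set against that of control plasma cells. The comparison took every gene in 7 of the 23 libraries of the series, chosen by their labels: 4 VQ-D2 libraries (2 from spleen, 2 from LN, lymph node) and 3 Control libraries from BM (bone marrow). VQ-D2 cells carry Vκ*MYC, the heterozygous allele NrasLSL Q61R/+ and IgG1-Cre, and were taken from recipients of donor cells. Control mice carry IgG1-Cre alone, so the Cre transgene is common to both groups. All libraries are labelled as CD138-positive, B220-negative cells, the surface phenotype of plasma cells. The other lines of the series are VQ-D1, VQ-D4 and VQ-D5, which share the VQ-D2 genotype, and t-VK12653, which carries Vκ*MYC without the Nras allele. Each of them has 4 libraries.

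VQ-D2 descends from 1 donor, so n = 4 counts libraries of a single tumour and not animals of a genotype. Per the names of the deposited tables, replicates 1 (spleen) and 3 (LN) came from one recipient and replicates 2 (spleen) and 4 (LN) from another. No VQ-D2 library is from bone marrow and no Control library from spleen or LN, so line and site cannot be told apart. Nothing in the labels says that the Control libraries came from separate mice, and p-values measure the spread between these libraries.

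Vκ*MYC is a transgene driven by immunoglobulin kappa regulatory sequence that switches on MYC after activation-induced mutation in germinal centre B cells. NRAS relays growth factor signals to the RAF, MEK and ERK kinases, and a Q61R change locks it in its active state. IgG1-Cre acts in B cells that switch to IgG1, and removes the stop sequence of the Nras allele. Myeloma is a cancer of plasma cells, which end their B cell programme, secrete antibody and normally stop dividing. MYC and RAS changes are frequent in the human disease.

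Total counts were 4184305 to 6498732 per VQ-D2 library and 2685579 to 3790134 per Control library, and 13943 to 17188 genes in VQ-D2 and 14458 to 14781 in Control had at least 1 count. The highest of these numbers of genes belonged to VQ-D2 replicate 2. Rn45s, the ribosomal RNA precursor, took 16.93% to 21.51% of VQ-D2 counts and 16.36% to 17.34% of Control counts. Levels are given as CPM, counts scaled to the TMM-adjusted library size, in replicate order. Besides plasma cell genes, the Control libraries held transcripts of other cells. The 52 neutrophil genes summed to 75.1 to 115 CPM in VQ-D2, against 5421 to 14036 CPM in Control, with Control replicate 2 the highest, and the 28 erythroid genes to 42.2 to 136 CPM in VQ-D2, against 391 to 2135 CPM in Control. Genes induced by tissue dissociation and stress summed to 1786 to 2531 CPM in VQ-D2, against 6252 to 17269.5 CPM in Control, with Control replicate 1 the highest. Xist, the RNA of the inactive X chromosome, had 7.29, 4.04, 8.19 and 5.44 CPM in VQ-D2, against 1477, 3.76 and 4.25 CPM in Control, and the Y-linked Kdm5d had no read in VQ-D2, against 19.9, 44.3 and 61.8 CPM in Control. In bulk RNA, fewer cells of a type and less RNA per cell cannot be told apart, and how far these cells account for any difference between the groups was not tested.

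Myc stood far above its control level in every VQ-D2 library, and Nras was raised to a lesser degree. Myc, on chromosome 15 (chr15:61985341-61990361, GRCm38), had 3633, 3647, 3571 and 3681 CPM in VQ-D2, against 45.7, 63.9 and 31.8 CPM in Control (log2 fold change 6.28, SE 0.238, adjusted p = 4.95e-08; edgeR's quasi-likelihood test with Benjamini-Hochberg adjustment over all genes tested, as for every adjusted p here). The VQ-D2 libraries lay within a few percent of each other and the groups did not overlap. Whether these reads come from the transgene or from the mouse gene cannot be told from counts per gene. Nras, on chromosome 3 (chr3:103058285-103067914), had 85.2, 80.9, 96 and 104 CPM in VQ-D2, against 35.8, 34.6 and 35.4 CPM in Control (log2 fold change 1.37, SE 0.12, adjusted p = 5.60e-06). Its counts do not distinguish the Q61R allele from the wild type, and its groups did not overlap either. Myc partners moved less: Max, the obligate dimer partner of MYC, averaged 58.5 ± 5.7 CPM in VQ-D2 and 53.3 ± 10.2 CPM in Control (SD, n = 4 and 3), which did not pass the test. Of the 10 tested genes of the MYC network, 3 rose, Myc itself among them, and 2 fell, with a median log2 fold change of 0.18. That is no more than the shares of all tested genes, 33.2% higher and 35.1% lower. Mxd1, a MAX partner that represses the sites MYC activates, fell (38.3, 32.1, 43.6 and 33.5 CPM in VQ-D2, against 171, 306 and 117 CPM in Control, log2 fold change -2.42, SE 0.283, adjusted p = 5.24e-05), and Mga, another MAX partner, rose by 0.53 (SE 0.0978) on the log2 scale.

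**Figure D1:**
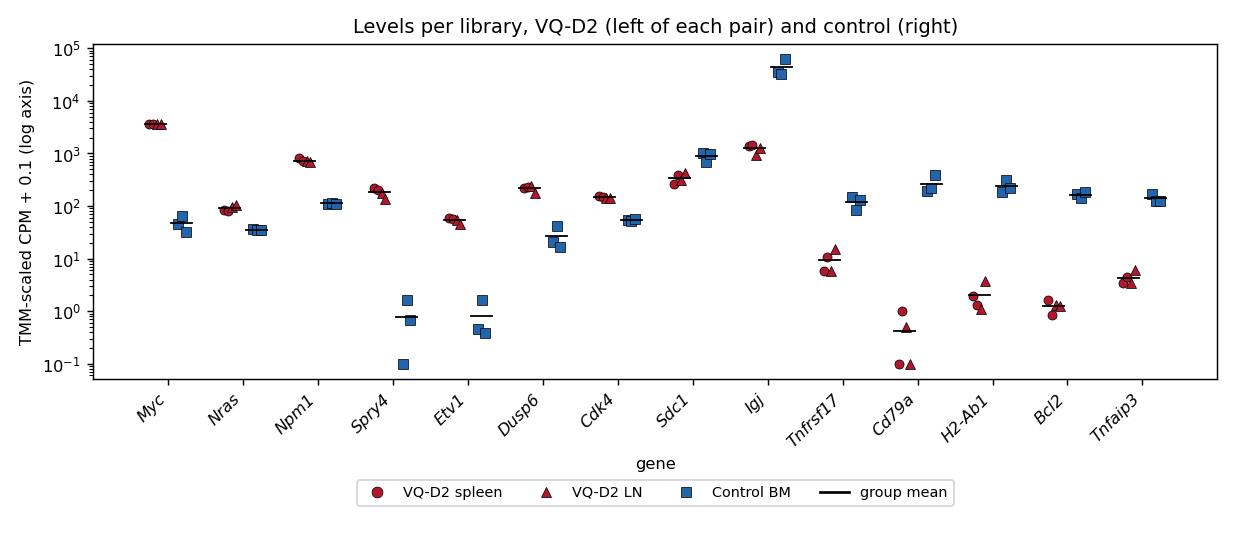
Level of 14 genes in each library, in CPM plus 0.1 on a log axis, with VQ-D2 left of Control in each panel; circles are VQ-D2 spleen libraries, triangles VQ-D2 LN libraries, squares Control bone marrow libraries and bars group means. Myc, Nras, Npm1, Spry4, Etv1, Dusp6 and Cdk4 lie higher in all 4 VQ-D2 libraries, while Sdc1, Igj, Tnfrsf17, Cd79a, H2-Ab1, Bcl2 and Tnfaip3 lie lower.

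Across the genome, 7970 of 11669 tested genes differed between VQ-D2 and Control at an adjusted p under 0.05. Of all tested genes, 33.2% were called higher (3874) and 35.1% lower (4096), 68.3% in all, and for 68.6% the values of the groups did not overlap. The median log2 fold change over all tested genes was -0.02. With so large a share of genes called, the number of called genes in any list is read against these percentages. The members of the gene lists below were chosen with results of these data known, so their counts and medians are descriptions. They cover only members that passed the filter on low counts. A member that passed through the group where it is high had to differ, so lists with many untested members are described by their summed level.

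The genes with the largest rise were nearly silent in Control. Sema3e, a secreted semaphorin that guides axons and vessels, had 92.8, 119.7, 132 and 128 CPM in VQ-D2, against 0, 0 and 0 CPM in Control. Its level was at least 350-fold higher in VQ-D2, set against a floor of 3 reads over the Control libraries. By the same floor, 12 further genes with no Control read were at least 52.5-fold higher. They were Strc (at least 200-fold), encoding stereocilin of the inner ear, and Tex13 (167-fold), a testis-expressed gene on the X chromosome. Crygs (153-fold) encodes a lens crystallin, and Adad2 (135-fold) an adenosine deaminase-domain protein of the testis. Lphn3 (111-fold) encodes an adhesion receptor of neurons, Grm3 (94.9-fold) a glutamate receptor and Myt1l (66-fold) a neuronal transcription factor. Sh3rf2 (80.8-fold) encodes a ubiquitin ligase, Slc47a1 (72.3-fold) a drug efflux transporter and Misp (58.1-fold) a mitotic spindle protein. Atp6ap1l (68.3-fold) and Pcsk2os2 (52.5-fold) complete these 12. Pcsk2os2 overlaps Pcsk2 and Strc overlaps Ckmt1, so the reads of these pairs may not be separable. Bmpr1b, a receptor for bone morphogenetic proteins, had 61.3, 81.5, 89.4 and 87.9 CPM in VQ-D2, against 0, 0.376 and 0 CPM in Control, a ratio of VQ-D2 to Control of 709 with a counting interval of 127 to 28000 (95%).

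The genes with the largest fall included B cell and signalling genes. Cd83, a surface marker of activated B and dendritic cells, had no VQ-D2 read and 90.1, 39.4 and 39.7 CPM in Control, and was at least 414-fold lower, against a floor of 3 reads over the VQ-D2 libraries. Blk, a SRC-family kinase of B cells, had no VQ-D2 read either and was at least 388-fold lower, but it was not called in the fit of all 23 libraries with a tissue term (adjusted p = 1.0), where its standard error could not be estimated usefully. Of the others without a VQ-D2 read, Sumf1, which activates sulfatases, was at least 252-fold lower and Cdc42ep3, a CDC42 effector, 217-fold. Scmh1, a Polycomb-group gene, was at least 185-fold lower, and Spns3 and Parm1 at least 174-fold and 158-fold. Cdh2, encoding N-cadherin, was at least 174-fold lower, with Control values of 56.7, 7.51 and 8.51 CPM. Without Control replicate 1 the bound was 60.4-fold, and the call was lost without Control replicate 2 (adjusted p = 0.0754) and with no filter (adjusted p = 0.0985). Zfp362, Rims2, Xylt1 and Serpina3g had 1 to 3 VQ-D2 reads each, so the ratio of Control to VQ-D2 carried a wide counting interval. It was 2835 with a counting interval of 508 to 112000 for Zfp362, 1212 with a counting interval of 217 to 48000 for Rims2, 1200 with a counting interval of 214 to 47500 for Xylt1 and 948 with a counting interval of 324 to 4605 for Serpina3g, a serine protease inhibitor of lymphocytes. St8sia6, a sialyltransferase, had 0.465, 0.15, 0.409 and 0.227 CPM in VQ-D2, against 297, 229.5 and 322 CPM in Control (log2 fold change -9.7, SE 0.232, adjusted p = 8.02e-09).

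**Figure D2:**
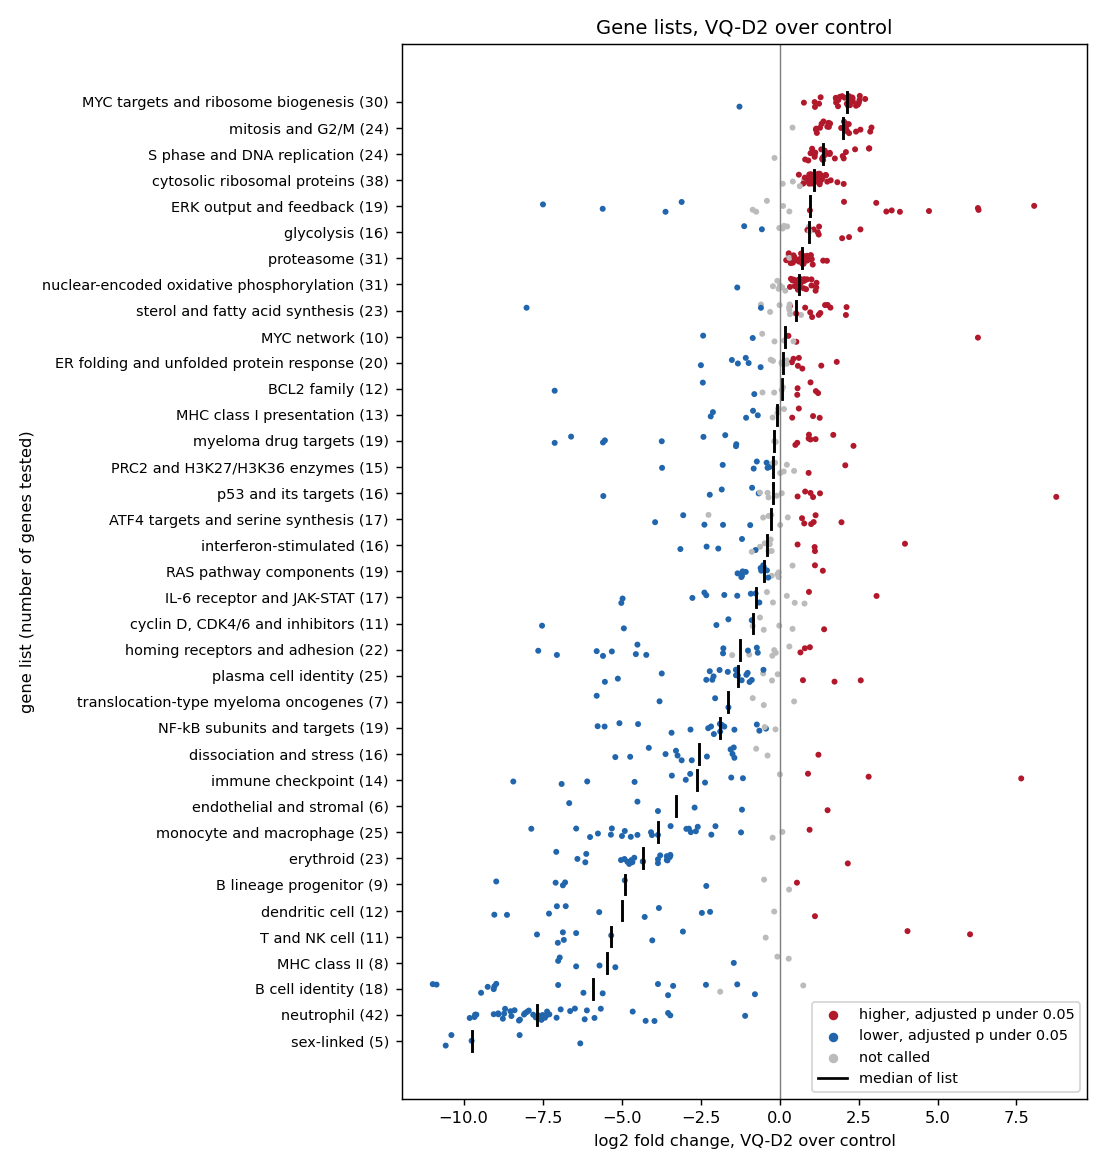
Log2 fold change of VQ-D2 over Control for each tested gene, 1 row per gene list with at least 5 tested genes; red points were called higher, blue called lower and grey not called at an adjusted p of 0.05, and black bars are medians. MYC targets, ribosomal proteins, cell cycle and proteasome lists lie mostly right of 0, and B cell, MHC class II, NF-kB and other-cell lists mostly left. Genes that did not pass the filter on low counts are not drawn.

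Nearly all genes on a list of known MYC targets rose, most of them genes of ribosome biogenesis, with a few of other roles. Of the 30 listed, all tested, 29 rose and 1 fell, with a median log2 fold change of 2.14. Summed, the list reached 10870.5 to 11783 CPM in VQ-D2, against 2619 to 2956 CPM in Control. Npm1, a nucleolar chaperone of ribosome assembly, had 818, 712, 707 and 686 CPM in VQ-D2, against 110.3, 114 and 112 CPM in Control (log2 fold change 2.71, SE 0.105, adjusted p = 4.58e-08). Nop2, an rRNA methyltransferase, had 171, 162, 164 and 167 CPM in VQ-D2, against 26.6, 32.7 and 26.7 CPM in Control (log2 fold change 2.54, SE 0.109, adjusted p = 8.63e-08), and Hspd1, the mitochondrial chaperonin, which overlaps Hspe1, had 196, 173, 193 and 201 CPM in VQ-D2, against 29.1, 40.6 and 30.1 CPM in Control (log2 fold change 2.53, SE 0.135, adjusted p = 2.54e-07). In each of these genes the lowest VQ-D2 library lay above the highest Control library. Rrp9, a protein of the U3 snoRNP, rose by 2.51 (SE 0.124) on the log2 scale, and Ncl, the major nucleolar protein nucleolin, averaged 4217 ± 253 CPM in VQ-D2 and 849 ± 37.1 CPM in Control. Odc1, the first enzyme of polyamine synthesis, was the member that fell (88.7, 77.9, 74.5 and 82.9 CPM in VQ-D2, against 321, 127 and 139 CPM in Control, log2 fold change -1.27, SE 0.284, adjusted p = 0.003).

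MYC and MAX bind the E-box CACGTG, and the promoters of Nop2 and Hspd1 are shown as examples of rising members that hold it. Each runs from 250 bases before to 50 bases after the start given by RefSeq (GRCm38.p6), 5′ to 3′ on the gene's strand, and capitals mark the motifs searched on either strand: the E-box CACGTG, the CCAAT box and the cAMP response element (CRE) TGACGTCA. The E-box reads the same on both strands and does not overlap the other motifs.
Nop2 (chr6:125131633-125131932, plus strand): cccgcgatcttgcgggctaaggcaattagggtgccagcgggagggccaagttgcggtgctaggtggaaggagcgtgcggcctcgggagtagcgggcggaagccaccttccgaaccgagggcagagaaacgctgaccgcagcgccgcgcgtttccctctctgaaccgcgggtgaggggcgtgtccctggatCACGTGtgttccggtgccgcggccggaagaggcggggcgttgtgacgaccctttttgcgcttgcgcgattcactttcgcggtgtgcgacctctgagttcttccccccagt
Hspd1 (chr1:55088194-55088493, minus strand): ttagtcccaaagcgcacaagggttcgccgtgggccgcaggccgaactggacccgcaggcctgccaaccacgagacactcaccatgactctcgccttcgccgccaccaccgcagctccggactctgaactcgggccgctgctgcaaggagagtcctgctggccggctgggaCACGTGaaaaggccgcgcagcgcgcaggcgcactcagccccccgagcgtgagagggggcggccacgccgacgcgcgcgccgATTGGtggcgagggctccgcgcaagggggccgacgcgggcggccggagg
The E-box starts 60 bases before the start of Nop2 and 80 bases before that of Hspd1, which also holds CCAAT on the other strand. Of the 24 list members with a promoter in the RefSeq table, 7 held an E-box (29.2%). Among all 27025 promoters of the table it was 7.24%, among the 9298 of tested genes 10.7%, among genes called higher 12.1% and among genes called lower 9.28%. A motif match describes these letters and shows no binding.

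Genes for the ribosome itself and for protein turnover rose too. Of 38 cytosolic ribosomal protein genes tested, 34 rose and none fell in edgeR's test, with a median log2 fold change of 1.10, and the 4 others had positive values that did not pass. Rplp0, a protein of the ribosomal stalk, had 1042, 1140.5, 944 and 980.2 CPM in VQ-D2, against 346, 383 and 389 CPM in Control (log2 fold change 1.46, SE 0.105, adjusted p = 1.59e-06), and Rps2 rose by 1.83 (SE 0.125). Many of these genes have processed pseudogenes, and the counting rule for reads that match such copies is not stated. Of 31 proteasome genes tested, 29 rose and none fell, with a median of 0.70. Psma5, of the outer ring of the core, had 37.1, 36.5, 38.7 and 38.3 CPM in VQ-D2, against 13.1, 15.4 and 11.6 CPM in Control (log2 fold change 1.5, SE 0.146, adjusted p = 1.11e-05), and Psmb5, the subunit that bortezomib binds, had 33.4, 35.5, 31.9 and 40.1 CPM in VQ-D2, against 18.4, 16.2 and 18.7 CPM in Control (log2 fold change 0.98, SE 0.146, adjusted p = 1.86e-04). Groups did not overlap for any of these.

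Energy and lipid genes moved mainly upward. Of 31 nuclear-encoded genes of oxidative phosphorylation tested, 24 rose and 1 fell, with a median of 0.61. Atp5b, the catalytic subunit of ATP synthase, averaged 1122 ± 21.8 CPM in VQ-D2 and 503 ± 13.5 CPM in Control (log2 fold change 1.16, SE 0.0867, adjusted p = 2.00e-06). Ndufa1, a subunit of complex I on the X chromosome, was the one that fell (12.6, 14.4, 18.6 and 19 CPM in VQ-D2, against 38.3, 37.2 and 46.2 CPM in Control, log2 fold change -1.34, SE 0.18, adjusted p = 9.43e-05), and its gene overlaps Rnf113a1. Of 16 glycolysis genes tested, 8 rose and 2 fell, with a median of 0.93. Slc16a1, a lactate transporter on chromosome 3, had 189, 181, 177 and 196 CPM in VQ-D2, against 24.5, 50.3 and 20.7 CPM in Control (log2 fold change 2.56, SE 0.258, adjusted p = 1.96e-05), and Eno1, an enolase, rose by 2.2 (SE 0.173) and Ldha, which makes lactate, by 1.98 (SE 0.162). Hk1 and Aldoa fell, with log2 fold changes of -1.12 (SE 0.148) and -0.56 (SE 0.103). Of 23 sterol and fatty acid genes tested, 12 rose and 2 fell, with a median of 0.53. Sqle, the squalene epoxidase of sterol synthesis, had 46.7, 55, 64.7 and 69.1 CPM in VQ-D2, against 16.3, 9.77 and 14.2 CPM in Control (log2 fold change 2.12, SE 0.205, adjusted p = 1.05e-05), and Fasn, the fatty acid synthase, averaged 624 ± 49.4 CPM in VQ-D2 and 146 ± 7.55 CPM in Control (log2 fold change 2.1, SE 0.105, adjusted p = 1.73e-07). Scd1, a stearoyl-CoA desaturase, went the other way with 0.155, 0.899, 0 and 0.227 CPM in VQ-D2, against 36.2, 129.6 and 130.5 CPM in Control (log2 fold change -8.01, SE 0.661, adjusted p = 5.74e-06). By length-scaled level (TPM, the authors' values), the 5 most abundant listed transcripts in VQ-D2 were Hsp90b1, Calr, Rpl8, Rplp2 and Rpl13a. Hsp90b1, the ER chaperone GRP94, had 6939, 8809.8, 7894 and 11022 TPM in VQ-D2 and 7557, 5932 and 8241 TPM in Control, and Rpl8 had 5167, 5122, 4547 and 4901 TPM in VQ-D2 and 2276, 2176 and 2255 TPM in Control. Hsp90b1 thus overlapped between the groups while Rpl8 did not.

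Genes that report ERK activity split into feedback inhibitors and ETS factors that rose and immediate early genes that fell. Of 19 tested, 10 rose and 4 fell, with a median of 0.96, while the summed level overlapped between the groups. Spry4, a Sprouty inhibitor of RAS signalling, had 223, 200.1, 177 and 138 CPM in VQ-D2, against 0, 1.5 and 0.567 CPM in Control (log2 fold change 8.06, SE 0.39, adjusted p = 2.53e-07). Its relative Spry1 had 34.4, 24.9, 26.2 and 23.8 CPM in VQ-D2, against 0.355, 1.88 and 0.851 CPM in Control (log2 fold change 4.73, SE 0.364, adjusted p = 2.33e-06). Both were low in every Control library and far higher in every VQ-D2 library. Etv1, an ETS factor stabilised by ERK signalling, had 59.7, 57.4, 53.2 and 45.1 CPM in VQ-D2, against 0.355, 1.5 and 0.284 CPM in Control (log2 fold change 6.28, SE 0.33, adjusted p = 2.34e-07). Etv4, its relative, had 22.7, 32.8, 25 and 33.3 CPM in VQ-D2, against 0.355, 0 and 0.567 CPM in Control, a ratio of VQ-D2 to Control of 84.9 with a counting interval of 28.9 to 413, and Etv5 rose by 3.55 (SE 0.209) on the log2 scale. Dusp6, the cytoplasmic phosphatase of ERK, had 219, 231, 237 and 178 CPM in VQ-D2, against 20.6, 41.7 and 16.4 CPM in Control (log2 fold change 3.06, SE 0.278, adjusted p = 1.04e-05), and Spred1, which recruits neurofibromin to RAS, rose by 3.38 (SE 0.269) and Phlda1 by 3.81 (SE 0.387).

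The 4 that fell were Egr1, Egr2, Egr3 and Fos, transcription factors induced within minutes of stimulation. Egr3 had 0.465, 0.3, 0 and 0.227 CPM in VQ-D2, against 109, 34.9 and 15.3 CPM in Control (log2 fold change -7.49, SE 0.864, adjusted p = 4.76e-05). Fos had 177, 66.1, 143 and 212 CPM in VQ-D2, against 3394, 939 and 1125 CPM in Control (log2 fold change -3.61, SE 0.506, adjusted p = 1.67e-04), and Control replicate 1 stood above the other 2 Control libraries. Fos and Egr1 are also members of the dissociation and stress list, of which 13 of 16 tested genes fell and 1 rose, with a median of -2.54. Fosb in that list had 109.5, 54.8, 88.4 and 98.1 CPM in VQ-D2, against 3324, 545 and 771 CPM in Control (log2 fold change -4.14, SE 0.587, adjusted p = 1.77e-04), and the rising member was Hsph1, a heat shock protein (293, 245, 253 and 239.9 CPM in VQ-D2, against 149, 86 and 93.9 CPM in Control, log2 fold change 1.23, SE 0.184, adjusted p = 2.31e-04). The part of tissue handling in the fall of these genes was not tested. Without Control replicate 1, 12 genes of the ERK list rose and 4 fell, and without Control replicate 3, 10 rose and 7 fell.

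The core components of the pathway mostly fell. Of 19 RAS pathway genes tested, 12 fell and 2 rose, with a median of -0.50, and the 2 were Nras and Hras. Hras had 44.4, 43.6, 41.5 and 39.2 CPM in VQ-D2, against 18.4, 18.4 and 21.3 CPM in Control (log2 fold change 1.12, SE 0.13, adjusted p = 3.54e-05). The kinase genes Map2k1 (MEK1) and Mapk3 (ERK1) fell, with log2 fold changes of -1.33 (SE 0.102) and -1.19 (SE 0.202), as did the adaptor Grb2, with -1.21 (SE 0.11).

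Cell division genes rose almost without exception. Of 24 genes of S phase and DNA replication, 23 rose and none fell, with a median of 1.39, and the summed list lay at 2584 to 3186 CPM in VQ-D2, against 868 to 1551 CPM in Control. Mcm10, a replication initiation factor, had 158, 149, 109.9 and 136 CPM in VQ-D2, against 16, 28.6 and 14.2 CPM in Control (log2 fold change 2.84, SE 0.236, adjusted p = 5.97e-06), and Gins2, of the replicative helicase, had 32.7, 36.8, 28.9 and 37.2 CPM in VQ-D2, against 5.32, 6.76 and 2.55 CPM in Control (log2 fold change 2.83, SE 0.271, adjusted p = 9.60e-06). Control replicate 2 was the highest Control library for Mcm10 and for the list as a whole, yet below every VQ-D2 library. Tk1, the salvage thymidine kinase, was the member that did not pass (31.6 ± 2.49 CPM in VQ-D2 and 35.5 ± 10 CPM in Control). Of 24 mitotic genes, 23 rose and none fell, with a median of 2.0. Bub1, a checkpoint kinase, had 51.7, 41.5, 37.5 and 48.5 CPM in VQ-D2, against 2.84, 10.1 and 5.1 CPM in Control (log2 fold change 2.91, SE 0.313, adjusted p = 2.71e-05), and Cdc20, which activates the anaphase-promoting complex, had 123, 88.4, 93.5 and 93.6 CPM in VQ-D2, against 8.86, 24 and 8.79 CPM in Control (log2 fold change 2.87, SE 0.313, adjusted p = 3.33e-05). Mki67, the gene of the Ki-67 antigen, averaged 2368 ± 424 CPM in VQ-D2 and 1043 ± 372 CPM in Control (log2 fold change 1.18, SE 0.229, adjusted p = 0.00126). For both lists, the exact permutation test over libraries gave p = 0.0571 for the summed level, which is the smallest two-sided p that 4 against 3 libraries allow.

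The cyclin D axis did not move as a block. Of 11 genes tested, 1 rose (2 without Control replicate 1) and 5 fell, with a median of -0.85. The rising gene was Cdk4, the cyclin D-dependent kinase, which overlaps Tspan31, with 157, 145, 141 and 140.2 CPM in VQ-D2, against 55.3, 51.8 and 57 CPM in Control (log2 fold change 1.41, SE 0.0945, adjusted p = 1.04e-06). Among its inhibitors, Cdkn2c had 0.31, 0.449, 0.614 and 0.453 CPM in VQ-D2, against 14.5, 19.5 and 9.64 CPM in Control (log2 fold change -4.93, SE 0.407, adjusted p = 3.67e-06), and Cdkn2d and Cdkn1b fell, with log2 fold changes of -2.0 (SE 0.457) and -0.88 (SE 0.124). Cdkn2b had no VQ-D2 read and averaged 5.04 ± 0.806 CPM in Control. Ccnd2 averaged 357 ± 59.2 CPM in VQ-D2 and 505 ± 568 CPM in Control and did not pass, and Ccnd3 fell, with a log2 fold change of -1.62 (SE 0.22). Of 10 genes that translocations activate in human myeloma 7 were tested, and 4 fell and none rose, while the summed level overlapped between the groups. Itgb7, an integrin that MAF activates, had 1.71, 1.95, 2.46 and 2.72 CPM in VQ-D2, against 102, 132 and 128 CPM in Control (log2 fold change -5.79, SE 0.175, adjusted p = 1.31e-08), Maf averaged 0.686 ± 0.367 CPM in VQ-D2 and 9.85 ± 3.16 CPM in Control, and Fgfr3 had no VQ-D2 read.

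Of 16 genes of p53 and its targets tested, 6 rose and 5 fell, shares near the 33.2% and 35.1% of all tested genes, with a median of -0.22. Trp53 itself had 102, 93.8, 90.7 and 90.4 CPM in VQ-D2, against 31.2, 45.1 and 40.3 CPM in Control (log2 fold change 1.28, SE 0.132, adjusted p = 1.56e-05), and Eda2r, a death receptor, had no Control read and 11.5, 12.9, 11.9 and 11.8 CPM in VQ-D2, at least 36.2-fold more. Gadd45a, a stress-induced growth arrest gene, had 0.31, 0.449, 0.205 and 0.453 CPM in VQ-D2, against 11.7, 33.8 and 9.93 CPM in Control (log2 fold change -5.58, SE 0.575, adjusted p = 1.56e-05), and Trp53inp1 averaged 538 ± 217 CPM in VQ-D2 and 2499.6 ± 641 CPM in Control (log2 fold change -2.21, SE 0.305, adjusted p = 1.49e-04). Cdkn1a (p21) averaged 2.69 ± 2.17 CPM in VQ-D2 and 4.07 ± 2.34 CPM in Control and did not pass the test. Of 18 BCL2 family genes 12 were tested, and 5 rose and 3 fell (5 without Control replicate 2), with a median of 0.09. The sum of all 18 overlapped between the groups, at 1084 to 1152 CPM in VQ-D2, against 1094 to 1357 CPM in Control. Bcl2, the target of venetoclax, had 1.55, 0.749, 1.23 and 1.13 CPM in VQ-D2, against 173, 141 and 182 CPM in Control (log2 fold change -7.12, SE 0.188, adjusted p = 8.45e-09), and Bcl2l1 (BCL-XL) had 2.95, 4.64, 8.8 and 5.21 CPM in VQ-D2, against 30.8, 35.3 and 20.7 CPM in Control (log2 fold change -2.43, SE 0.333, adjusted p = 1.18e-04). Mcl1, the survival factor on which plasma cells depend, averaged 651 ± 35.8 CPM in VQ-D2 and 733 ± 94.7 CPM in Control (log2 fold change -0.17) and was not called. Of the killers, Bcl2l11 (BIM) had 145, 102, 135 and 112 CPM in VQ-D2, against 56.7, 48.1 and 54.4 CPM in Control (log2 fold change 1.22, SE 0.143, adjusted p = 3.80e-05), and Bak1, which overlaps Ggnbp1, rose by 1.15 (SE 0.185).

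Plasma cell genes were expressed in VQ-D2 but mostly below Control. Of 25 tested, 19 fell and 3 rose, with a median of -1.32, and the list summed to 9607 to 12510.4 CPM in VQ-D2, against 49452 to 86301 CPM in Control. Much of that sum is Igj, the J chain of polymeric antibody, with 1396, 1437, 917 and 1277 CPM in VQ-D2, against 35990.2, 32994 and 62096 CPM in Control (log2 fold change -5.12, SE 0.269, adjusted p = 4.09e-07). Sdc1, which encodes CD138, had 262, 384, 310.5 and 426 CPM in VQ-D2, against 1014, 691 and 966 CPM in Control (log2 fold change -1.37, SE 0.187, adjusted p = 1.42e-04), and Tnfrsf17, the receptor BCMA, had 5.74, 10.5, 5.73 and 15.2 CPM in VQ-D2, against 149, 85.7 and 129.6 CPM in Control (log2 fold change -3.73, SE 0.317, adjusted p = 6.82e-06). The transcription factors of the programme Prdm1 and Xbp1 fell, with log2 fold changes of -2.09 (SE 0.175) and -0.95 (SE 0.197). Irf4 averaged 1156 ± 81.7 CPM in VQ-D2 and 1367 ± 414 CPM in Control (log2 fold change -0.24) and did not pass the test. The 3 that rose were Fkbp11, an ER prolyl isomerase (276, 419.8, 299 and 382 CPM in VQ-D2, against 63.1, 50 and 60.7 CPM in Control, log2 fold change 2.57, SE 0.174, adjusted p = 1.23e-06), Ly6k and Eaf2. The lowest member of the list in VQ-D2 was Cd38, which averaged 0.494 CPM and had no read in replicate 3, whereas Slamf7 and Mzb1 averaged 315 and 366 CPM.

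Most B cell and MHC class II genes tested were lower in VQ-D2. Of 20 B cell genes 18 were tested, and 16 fell and none rose. Summed, the list lay at 328 to 480.5 CPM in VQ-D2, against 1583 to 2181 CPM in Control. Cd79a, a signalling chain of the B cell receptor, had 0, 0.899, 0.409 and 0 CPM in VQ-D2, against 197, 222 and 384 CPM in Control (log2 fold change -9.45, SE 0.47, adjusted p = 2.95e-07). Ms4a1, which encodes CD20, had 2 reads in all VQ-D2 libraries and 47.9, 82.6 and 80.8 CPM in Control. Cd79b, the partner chain of Cd79a, stayed well expressed, at 77, 115, 183 and 156 CPM in VQ-D2, against 222, 201 and 260.3 CPM in Control (log2 fold change -0.78, SE 0.252, adjusted p = 0.0197). Ptprc, the gene whose B220 isoform was used in the sort, had 163, 216, 200.2 and 235 CPM in VQ-D2, against 420.2, 639 and 488 CPM in Control (log2 fold change -1.34, SE 0.162, adjusted p = 5.46e-05), and Bach2, a repressor of plasma cell differentiation, averaged 59.2 ± 2.3 CPM in VQ-D2 and 35.6 ± 30.6 CPM in Control and was not called. Of 19 genes of B lineage progenitors only 9 were tested, and their sum overlapped between the groups, at 569 to 880.0 CPM in VQ-D2, against 852 to 1181 CPM in Control. Dntt, the terminal transferase of early B and T cells, had no VQ-D2 read and 121, 24.4 and 2.55 CPM in Control, where replicate 1 was highest.

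Of 11 MHC class II genes 8 were tested, and 6 fell and none rose. Summed, the list lay at 69 to 163 CPM in VQ-D2, against 3771 to 4666 CPM in Control. H2-Ab1, a chain of the I-A molecule, had 1.86, 1.2, 1.02 and 3.62 CPM in VQ-D2, against 185, 316 and 224 CPM in Control (log2 fold change -7.01, SE 0.312, adjusted p = 1.59e-07), and its partner H2-Aa had 0.31, 0.899, 0.819 and 1.36 CPM in VQ-D2, against 29.8, 133 and 55.6 CPM in Control (log2 fold change -6.44, SE 0.607, adjusted p = 1.30e-05). Cd74, the invariant chain, had 34.9, 97.8, 45.8 and 93.8 CPM in VQ-D2, against 4309, 3057 and 3274 CPM in Control (log2 fold change -5.7, SE 0.377, adjusted p = 1.52e-06). Groups were far apart for all 3, whereas the peptide-loading genes H2-DMa (20.5 ± 7.62 CPM in VQ-D2 and 17 ± 5.54 CPM in Control) and H2-DMb1 (7.08 ± 1.81 CPM in VQ-D2 and 7.38 ± 2.41 CPM in Control) were not called. B cells, dendritic cells and macrophages express these genes as well, and their share in the Control levels was not tested. The promoter of H2-Aa is shown because CIITA acts on such promoters through an X box and a Y box, whose core letters are CRE-like and CCAAT; capitals mark TGACGTCA, the CRE, and CCAAT on either strand (RefSeq, GRCm38.p6).
H2-Aa (chr17:34287774-34288073, minus strand): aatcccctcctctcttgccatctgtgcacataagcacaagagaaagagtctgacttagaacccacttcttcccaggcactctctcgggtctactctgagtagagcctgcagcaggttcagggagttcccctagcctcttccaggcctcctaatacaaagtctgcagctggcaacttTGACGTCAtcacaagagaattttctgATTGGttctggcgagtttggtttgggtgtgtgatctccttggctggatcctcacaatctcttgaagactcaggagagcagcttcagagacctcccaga
CCAAT was found in 7 of 8 class II promoters in the table (87.5%), against 3718 of the 9298 promoters of tested genes, and TGACGTCA in 1 of 8, against 3.38%. Ciita averaged 0.536 ± 0.448 CPM in VQ-D2 and 19.5 ± 28.4 CPM in Control and was not among the tested genes. Of 13 genes of class I presentation tested, 4 rose and 5 fell, shares near those of all tested genes, with a median of -0.07. B2m, the common light chain, had 662, 598, 632 and 703 CPM in VQ-D2, against 3529, 2368 and 2936 CPM in Control (log2 fold change -2.18, SE 0.138, adjusted p = 7.43e-07), Pdia3, of the loading complex, rose by 1.27 (SE 0.129) on the log2 scale, and Tapbp fell, with a log2 fold change of -2.11 (SE 0.113). H2-K1 fell, with a log2 fold change of -0.84 (SE 0.132), and H2-D1 (776 ± 61.5 CPM in VQ-D2 and 903 ± 147 CPM in Control) did not pass.

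NF-kB genes fell together. Of 19 tested, 17 fell and none rose, with a median of -1.89, and the summed list lay at 556 to 573 CPM in VQ-D2, against 1677 to 1717 CPM in Control. Tnfaip3 (A20), a target gene that feeds back on the pathway, had 3.26, 4.34, 3.27 and 5.89 CPM in VQ-D2, against 169.5, 125 and 124 CPM in Control (log2 fold change -5.07, SE 0.202, adjusted p = 5.22e-08). Relb, a subunit of the non-canonical pathway, had 0.465, 2.4, 2.25 and 2.49 CPM in VQ-D2, against 40.4, 42.5 and 42.8 CPM in Control (log2 fold change -4.48, SE 0.336, adjusted p = 2.22e-06), and Nfkb2 and Nfkbia fell, with log2 fold changes of -2.82 (SE 0.165) and -2.26 (SE 0.151). Rela (116 ± 7.75 CPM in VQ-D2 and 127 ± 11.1 CPM in Control) and Rel (14 ± 3.74 CPM in VQ-D2 and 19.8 ± 12 CPM in Control) were the 2 not called. Tnfaip2, which had 0.465, 1.2, 0.205 and 0.68 CPM in VQ-D2, against 22, 60.9 and 14.7 CPM in Control, is also abundant in myeloid cells.

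Of 17 genes of the IL-6 receptor and JAK-STAT pathway tested, 10 fell and 2 rose (1 without Control replicate 2 or 3), with a median of -0.76. The 2 were Socs2, a feedback inhibitor, with 225, 214, 185 and 184 CPM in VQ-D2, against 32.6, 17.3 and 22.1 CPM in Control (log2 fold change 3.07, SE 0.193, adjusted p = 8.80e-07), and Il6ra, the IL-6 receptor on chromosome 3, with 148, 84.2, 145 and 64.6 CPM in VQ-D2, against 59.9, 63.9 and 50.8 CPM in Control (log2 fold change 0.93, SE 0.286, adjusted p = 0.016). Pim1, a kinase that STAT proteins induce, had 38.2, 40.7, 59.1 and 75.7 CPM in VQ-D2, against 388, 272 and 422 CPM in Control (log2 fold change -2.76, SE 0.247, adjusted p = 9.27e-06), and Stat3 and Stat5b fell, with log2 fold changes of -0.91 (SE 0.0931) and -2.32 (SE 0.13). Of 18 immune checkpoint genes 14 were tested, and 10 fell and 3 rose. Summed, all 18 lay at 230 to 289 CPM in VQ-D2, against 747 to 869 CPM in Control. Cd276 (B7-H3), an inhibitory ligand, had 90.5, 114, 83.1 and 92.7 CPM in VQ-D2, against 0.355, 1.13 and 0 CPM in Control (log2 fold change 7.65, SE 0.362, adjusted p = 1.45e-07). Cd274 (PD-L1) had 15, 15.6, 16.4 and 31.7 CPM in VQ-D2, against 192, 80 and 142 CPM in Control (log2 fold change -2.83, SE 0.33, adjusted p = 5.05e-05), and Lag3 had 1.09, 0.449, 0.205 and 0.906 CPM in VQ-D2, against 70.9, 28.2 and 42.5 CPM in Control (log2 fold change -6.09, SE 0.444, adjusted p = 2.66e-06). Cd200 had 0, 0, 0 and 0.227 CPM in VQ-D2, against 16, 21 and 37.4 CPM in Control, with 1 VQ-D2 read, a ratio of Control to VQ-D2 of 580 with a counting interval of 103 to 23000.

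Of 22 homing and adhesion genes tested, 13 fell and 3 rose, with a median of -1.25. Those that rose were Itga4 and Itgb1, the chains of VLA-4 that hold plasma cells to stroma, and Cd9. Itga4 had 852, 1082, 1064 and 1142 CPM in VQ-D2, against 601, 532 and 656 CPM in Control (log2 fold change 0.8, SE 0.126, adjusted p = 2.90e-04), and Itgb1 rose by 0.96 (SE 0.103). Cxcr4, the receptor of the marrow chemokine CXCL12, had 158, 133, 160.0 and 138 CPM in VQ-D2, against 113, 141 and 102 CPM in Control and was not called (adjusted p = 0.0504). Itgb2, an integrin chain of leukocytes, and Ccr9, a gut-homing receptor, fell, with log2 fold changes of -4.55 (SE 0.316) and -7.05 (SE 0.488). Itgb2 is also abundant in neutrophils.

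Of 19 tested genes on a list of myeloma drug targets and other myeloma genes, 8 rose and 9 fell, with a median of -0.17. Over all tested genes, 33.2% were called higher and 35.1% lower. Crbn, the target of lenalidomide, had 355, 329, 369 and 302 CPM in VQ-D2, against 112, 93.2 and 107 CPM in Control (log2 fold change 1.7, SE 0.113, adjusted p = 9.89e-07), whereas its neosubstrates Ikzf1 and Ikzf3 fell, with log2 fold changes of -1.72 (SE 0.109) and -2.41 (SE 0.128). Cd38, the target of daratumumab, had 0.465, 0.15, 0 and 1.36 CPM in VQ-D2, against 23.4, 17.3 and 25.8 CPM in Control (log2 fold change -5.53, SE 0.545, adjusted p = 1.34e-05), and Slamf7, the target of elotuzumab, had 317, 363, 319 and 260.1 CPM in VQ-D2, against 878, 659 and 929 CPM in Control (log2 fold change -1.38, SE 0.145, adjusted p = 1.77e-05). Cks1b, a gene of cell cycle progression on mouse chromosome 3, had 55.2, 44.9, 45 and 51 CPM in VQ-D2, against 11.7, 10.5 and 7.09 CPM in Control (log2 fold change 2.34, SE 0.188, adjusted p = 3.09e-06), and Xpo1, the target of selinexor, rose by 1.14 (SE 0.156). Gprc5d, another antibody target, had no Control read and averaged 0.112 CPM in VQ-D2, under the floor.

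Of 20 genes of ER folding and the unfolded protein response tested, 7 rose and 6 fell, with a median of 0.10. These shares lie near the 33.2% higher and 35.1% lower of all tested genes. Ssr1, of the translocon, had 1492, 1765, 1586 and 1747 CPM in VQ-D2, against 509.5, 412 and 488 CPM in Control (log2 fold change 1.81, SE 0.117, adjusted p = 8.66e-07), and Pdia6, an oxidoreductase, rose by 1.32 (SE 0.141). Herpud1, of ER-associated degradation, had 167, 239.5, 264 and 295 CPM in VQ-D2, against 1327, 1152 and 1579 CPM in Control (log2 fold change -2.49, SE 0.19, adjusted p = 3.56e-06), and Ern1 (IRE1), the sensor that splices Xbp1, fell, with a log2 fold change of -1.51 (SE 0.133). Of 17 ATF4 and serine synthesis genes tested, 6 rose and 5 fell, again near the shares of all tested genes, with a median of -0.26. The serine pathway enzymes Phgdh, Psat1, Psph and Shmt2 rose by 1.14 (SE 0.149), 1.96 (SE 0.239), 1.08 (SE 0.19) and 1.0 (SE 0.139) on the log2 scale. Ddit3 (CHOP) had 2.64, 2.85, 2.87 and 4.76 CPM in VQ-D2, against 57.8, 44 and 47.6 CPM in Control (log2 fold change -3.94, SE 0.218, adjusted p = 3.07e-07), and Slc3a2, the chain shared by amino acid exchangers, had 169, 222, 189 and 253 CPM in VQ-D2, against 2192, 1289 and 1691 CPM in Control (log2 fold change -3.05, SE 0.198, adjusted p = 1.35e-06).

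Of 24 interferon-stimulated genes 16 were tested, and 4 rose and 5 fell, no more than the shares of all tested genes. The sum of all 24 overlapped between the groups, at 397.5 to 570.6 CPM in VQ-D2, against 554.1 to 675.5 CPM in Control. Ifi44, on chromosome 3, had 13, 16.9, 15.6 and 19.5 CPM in VQ-D2, against 2.13, 0.751 and 0.284 CPM in Control (log2 fold change 3.97, SE 0.441, adjusted p = 2.61e-05), while Rsad2 (viperin) had 1.4, 2.25, 0.409 and 0.68 CPM in VQ-D2, against 4.96, 25.9 and 3.4 CPM in Control (log2 fold change -3.14, SE 0.775, adjusted p = 0.00516), and Rsad2 did not pass with the spleen libraries alone (adjusted p = 0.0507). Of 15 PRC2 and histone H3 K27 and K36 enzyme genes tested, 2 rose (4 without VQ-D2 replicate 3) and 7 fell (4 without Control replicate 3), with a median of -0.21. The 2 were Ezh2, the PRC2 methyltransferase (107, 103, 92.9 and 85.2 CPM in VQ-D2, against 43.6, 66.9 and 44 CPM in Control, log2 fold change 0.92, SE 0.162, adjusted p = 5.68e-04), and Phf19, a PRC2 accessory factor (17.1, 14.1, 15.3 and 19.3 CPM in VQ-D2, against 2.48, 4.13 and 4.82 CPM in Control, log2 fold change 2.08, SE 0.268, adjusted p = 7.13e-05). Ezh2 did not pass in a fit of all 23 libraries with a tissue term (log2 fold change 0.82, adjusted p = 0.0564). Phf1, a paralog of Phf19, had 5.43, 6.74, 5.32 and 7.02 CPM in VQ-D2, against 79.1, 76.6 and 87.1 CPM in Control (log2 fold change -3.72, SE 0.143, adjusted p = 4.42e-08), and Kdm6b, an H3K27 demethylase, fell, with a log2 fold change of -1.8 (SE 0.161).

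Markers of other cells were summed over every listed gene in the tables, because many members had too few reads to be tested. Of the 52 neutrophil genes, whose sums are given above, 42 were tested and 13 had no VQ-D2 read. Ngp, a granule protein, had 5.74, 2.55, 1.02 and 1.36 CPM in VQ-D2, against 940.0, 2276 and 917 CPM in Control (log2 fold change -8.91, SE 0.536, adjusted p = 9.21e-07). Of the 28 erythroid genes 23 were tested, and Hba-a1 had 2.64, 4.49, 0.409 and 5.21 CPM in VQ-D2, against 13.8, 80.8 and 12.8 CPM in Control, with counts equal to those of its copy Hba-a2. The 42 monocyte and macrophage genes, 25 of them tested, summed to 938 to 1364 CPM in VQ-D2, against 2574 to 3770.3 CPM in Control, and Csf1r had 0.621, 1.5, 1.23 and 1.81 CPM in VQ-D2, against 8.51, 45.8 and 11.1 CPM in Control. The 22 dendritic cell genes, 12 tested, summed to 412 to 429.7 CPM in VQ-D2, against 1186 to 1306 CPM in Control. The 26 megakaryocyte, mast cell and basophil genes, 4 tested and 11 without a VQ-D2 read, summed to 5.94 to 7.49 CPM in VQ-D2, against 489 to 646 CPM in Control. The 27 endothelial and stromal genes, 6 tested, summed to 32.3 to 50 CPM in VQ-D2, against 88.5 to 161 CPM in Control. The 30 T and NK cell genes, 11 tested, summed to 109 to 117 CPM in VQ-D2, against 176 to 278 CPM in Control. For each of these lists every VQ-D2 sum was below every Control sum. Against the direction of their list, Gzma, granzyme A, had 47.6, 34.7, 17.2 and 20.2 CPM in VQ-D2, against 0.355, 4.13 and 1.13 CPM in Control (log2 fold change 4.05, SE 0.615, adjusted p = 2.74e-04), and Cd6 had 43.6, 55.3, 58.7 and 53.5 CPM in VQ-D2, against 0.709, 1.5 and 0.284 CPM in Control (log2 fold change 6.03, SE 0.313, adjusted p = 2.16e-07). The defining T cell marker Cd3e averaged 0.234 ± 0.173 CPM in VQ-D2 and 8.48 ± 6.17 CPM in Control. Of 10 sex-linked genes 6 had no VQ-D2 read, and Ddx3y had 0, 0.15, 0.205 and 0 CPM in VQ-D2, against 45.7, 125 and 132 CPM in Control.

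A group of germline genes was high in VQ-D2 and near 0 in Control. Germline genes are expressed in testis or ovary and are silent in most body cells, largely through promoter DNA methylation, and several of them act in the piRNA pathway that silences transposons. The list of 48 was assembled after the first of them had been seen among the highest genes, so what follows is a description. Mov10l1, a piRNA helicase, had 321, 332, 324 and 332 CPM in VQ-D2, against 0.709, 0 and 0.851 CPM in Control. Tex101, a surface protein of germ cells, had 332, 335, 306 and 311 CPM in VQ-D2, against 0, 1.13 and 1.13 CPM in Control. Piwil2, a PIWI protein that binds piRNAs, had 242, 273, 222 and 246 CPM in VQ-D2, against 0, 3.38 and 1.42 CPM in Control. In these 3 genes every VQ-D2 library exceeded every Control library by more than an order of magnitude. Tdrkh, a Tudor-domain partner of PIWI proteins on chromosome 3, had 187, 195, 175 and 166 CPM in VQ-D2, against 6.74, 4.51 and 1.7 CPM in Control, and Stag3, a meiotic cohesin subunit, had 141, 133, 129 and 151 CPM in VQ-D2, against 1.06, 3.38 and 1.42 CPM in Control. Tdrd1, a Tudor-domain protein of the same pathway, had 105, 128, 113 and 106 CPM in VQ-D2, against 0, 0.751 and 0.284 CPM in Control. Rnf17 averaged 43.8 ± 3.49 CPM in VQ-D2 and 0.534 ± 0.465 CPM in Control, Brdt, a testis bromodomain protein, 30.5 ± 4.47 CPM in VQ-D2 and 4.45 ± 1.1 CPM in Control, Tex14 35.3 ± 7.61 CPM in VQ-D2 and 4.93 ± 1.58 CPM in Control and Tex15 25 ± 3.63 CPM in VQ-D2 and 4.87 ± 3.62 CPM in Control. Syce1, of the synaptonemal complex, had 1.24, 2.7, 21.5 and 11.6 CPM in VQ-D2, with no Control read. Its VQ-D2 mean was 9.24 CPM, or 5.16 CPM without replicate 3, and its call was lost without Control replicate 2 (adjusted p = 0.125) and with no filter (adjusted p = 0.142).

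Most germline genes of the list were low in both groups. Of the 47 present in the tables, 14 averaged at least 1 CPM in VQ-D2 and 11 in Control, and 8 had no VQ-D2 read. Dazl (0.113 CPM in VQ-D2) and Ddx4 (0.314 CPM), which mark germ cells, were under 1 CPM, and Mael had no read in either group. Rec8, a meiotic cohesin, was lower in VQ-D2, at 0.505 ± 0.573 CPM in VQ-D2 and 5.25 ± 1.29 CPM in Control. Only 15 had enough reads to be tested, most of them through VQ-D2, so no median is given. The promoters of Stag3 and Tdrd1 are shown as members of this group that hold an E-box (RefSeq, GRCm38.p6, motifs in capitals as above).
Stag3 (chr5:138280259-138280558, plus strand): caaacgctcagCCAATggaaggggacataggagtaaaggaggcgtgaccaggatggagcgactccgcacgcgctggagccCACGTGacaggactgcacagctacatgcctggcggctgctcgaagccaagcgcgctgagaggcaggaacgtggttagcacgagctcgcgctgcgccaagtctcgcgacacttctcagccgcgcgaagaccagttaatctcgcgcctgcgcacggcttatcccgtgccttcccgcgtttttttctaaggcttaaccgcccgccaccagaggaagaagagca
Tdrd1 (chr19:56825959-56826258, plus strand): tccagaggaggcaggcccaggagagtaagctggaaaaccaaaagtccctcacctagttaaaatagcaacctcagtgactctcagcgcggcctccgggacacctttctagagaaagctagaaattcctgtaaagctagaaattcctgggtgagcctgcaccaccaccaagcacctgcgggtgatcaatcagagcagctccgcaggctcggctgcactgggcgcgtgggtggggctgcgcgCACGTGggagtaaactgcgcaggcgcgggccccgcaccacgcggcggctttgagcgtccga
The Stag3 window lies inside the RefSeq gene span (chr5:138272514-138312397), at the start of a transcript that begins downstream of the first base of the gene. The E-box starts 170 bases before that start in Stag3 and 11 bases before it in Tdrd1. Of the 42 listed germline genes with a promoter in the table, silent ones included, 17 held CACGTG (40.5%), and of the 10 among them called higher, 5 did, against 10.7% of tested genes. Of 13 tested genes of DNA methylation, listed at the same time, 5 rose and 4 fell, with a median of 0.0. These shares lie near the 33.2% higher and 35.1% lower of all tested genes. Dnmt1, the maintenance methyltransferase, had 480.2, 461, 422 and 482 CPM in VQ-D2, against 191, 276 and 225 CPM in Control, and Tet1, which oxidises methylcytosine, averaged 0.187 ± 0.374 CPM in VQ-D2 and 5.26 ± 1.8 CPM in Control.

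**Figure D3:**
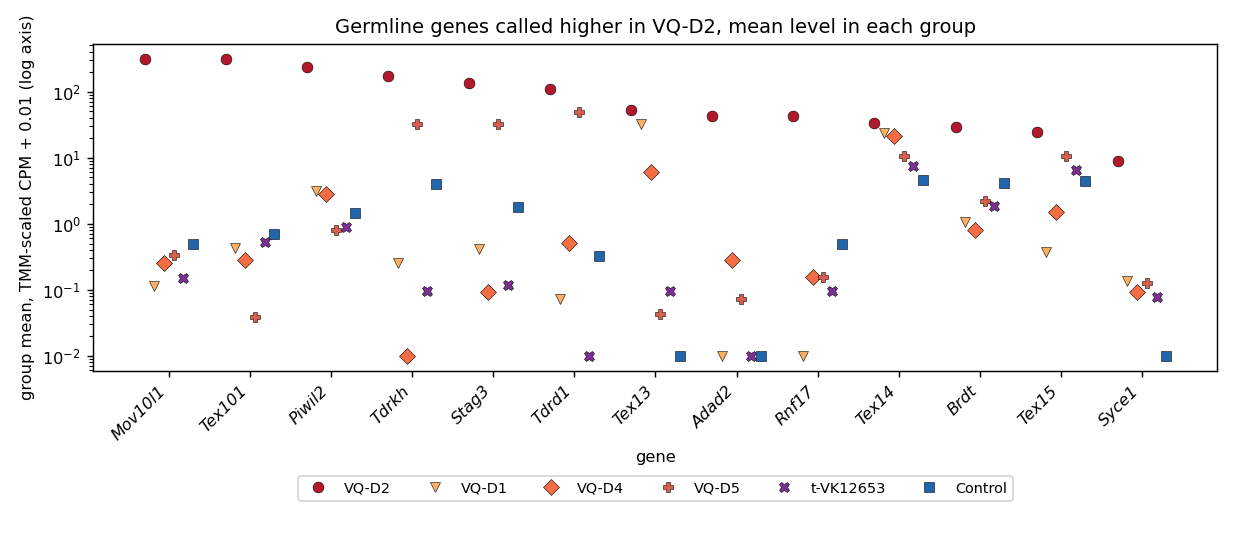
Mean level of 13 germline genes in VQ-D2, the other 4 myeloma lines and Control, in CPM plus 0.01 on a log axis scaled over all 23 libraries, 1 point per group and gene. The genes were chosen for being higher in VQ-D2 than in Control. Tex101, Mov10l1, Rnf17 and Adad2 are below 1 CPM in every other group, while VQ-D5 also has Tdrd1, Stag3 and Tdrkh, and every line has Tex14.

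VQ-D2 was next compared with the other VQ lines of the same genotype, in 1 fit of all 23 libraries with a tissue term. Of 12867 genes tested, 50.4% differed from the mean of VQ-D1, VQ-D4 and VQ-D5, 27.7% higher in VQ-D2 (3563) and 22.7% lower (2920), with a median of 0.02. Each line is a single donor, so these differences are between tumours. Against single lines, 38.6% of genes differed from VQ-D5, 51.3% from VQ-D1, 57.0% from VQ-D4 and 63.2% from t-VK12653. Levels in this comparison are on a scale fitted over all 23 libraries and given as mean ± SD of the libraries of a line.

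Several genes were high in VQ-D2 and near 0 in every other VQ line. Sema3e averaged 113 ± 16.4 CPM in VQ-D2 and at most 0.158 CPM in any other VQ line (log2 difference 10.35, SE 0.346, adjusted p = 2.00e-13). Tex101 averaged 308 ± 16.9 CPM in VQ-D2 and at most 0.418 CPM in the others (log2 difference 10.3, SE 0.25, adjusted p = 5.27e-18), and Mov10l1 313 ± 6.54 CPM against at most 0.329 CPM (log2 difference 10.2, SE 0.264, adjusted p = 2.88e-17). Prkaa2, a catalytic subunit of AMP-activated kinase, averaged 36.3 ± 5.86 CPM in VQ-D2, with no read in VQ-D1 or VQ-D4. Robo1, a receptor of the guidance factor SLIT, averaged 169 ± 50.3 CPM in VQ-D2, against at most 0.814 CPM in another VQ line and 3.78 ± 3.19 CPM in Control (log2 difference 9.31, SE 0.413, adjusted p = 4.11e-12). Adad2, Prr19 and Rnf17 complete the 8 with the largest difference, at 43 ± 3.15, 20 ± 1.8 and 41.9 ± 3.65 CPM in VQ-D2. Of the germline genes, Tdrd1 (48.5 CPM), Stag3 (32.7 CPM), Tdrkh (32.5 CPM) and Tex15 (10.5 CPM) were also expressed in VQ-D5. Tex13 was expressed in VQ-D1 (32.6 CPM) and VQ-D4 (6.04 CPM). Tex14 averaged 33.7 CPM in VQ-D2, 23.9 in VQ-D1, 21.5 in VQ-D4 and 10.4 in VQ-D5. Predicted, small RNA, histone and sex-linked genes and markers of other cells were left out of the next count. Of the 12867 genes tested, 658 were called higher, averaged at least 10 CPM in VQ-D2 and lay above all 12 other VQ libraries.

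In the other direction, with the same kinds of genes left out, 567 of the 12867 genes tested were called lower. They averaged at least 10 CPM in the other VQ lines and lay below all 12 libraries of those lines. Scmh1 had no VQ-D2 read, and averaged 21.4 ± 1.33 CPM in VQ-D1, 23.5 ± 2.41 in VQ-D4 and 5.08 ± 4.75 in VQ-D5. Sccpdh had no VQ-D2 read either, with 10.3 to 19 CPM in the other VQ lines. Ccdc68 had none in VQ-D2, and only 1.38 ± 0.388 CPM in VQ-D5. Lin28b, an RNA-binding protein that blocks let-7 maturation, averaged 0.0362 CPM in VQ-D2, against 68 ± 4.66 in VQ-D1, 47.9 ± 14.6 in VQ-D4 and 4.31 ± 2.84 in VQ-D5, and had no Control read. Ssx2ip and Faah, the hydrolase of the endocannabinoid anandamide, averaged 0.165 and 0.241 CPM in VQ-D2, and were lowest among the other VQ lines in VQ-D5 (8.11 and 9.25 CPM). Acsl3 and Utp14b overlap each other and had 3 and 2 VQ-D2 reads. Both also had no read in t-VK12653.

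Genes of the 2 engineered pathways differed between the lines as well. Myc averaged 3478 ± 63.7 CPM in VQ-D2, 592 ± 77.5 in VQ-D1, 1375 ± 204 in VQ-D4 and 1163 ± 105 in VQ-D5 (log2 difference 1.8, SE 0.115, adjusted p = 4.32e-11), while t-VK12653 had 6542 ± 252. Nras averaged 87.4 ± 9.17 CPM in VQ-D2, 42.3 ± 4.59 in VQ-D1, 51.1 ± 1.96 in VQ-D4 and 124 ± 12.1 in VQ-D5 (log2 difference 0.43, SE 0.0941, adjusted p = 6.75e-04), and that difference was lost without VQ-D1 (adjusted p = 0.0965) or VQ-D4 (adjusted p = 0.052). Spry4 averaged 177 ± 35.7 CPM in VQ-D2, 68 ± 18.1 in VQ-D1, 24.3 ± 7.68 in VQ-D4 and 192 ± 37.5 in VQ-D5, and t-VK12653, without the Nras allele, had 0.0848 CPM. Etv1 reached 51.6 ± 6.47 CPM in VQ-D2 and 29.3 ± 4.17 in VQ-D5, and had no read in VQ-D1. Of 20 ERK genes tested between the VQ lines, 9 were higher in VQ-D2 and 3 lower, with a median of 0.49.

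Ezh2 and Socs2 separated VQ-D2 and VQ-D5 from VQ-D1 and VQ-D4. Ezh2 averaged 92.9 ± 10.2 CPM in VQ-D2, 1.86 ± 1.62 in VQ-D1, 0.45 ± 0.613 in VQ-D4 and 22.2 ± 6.25 in VQ-D5 (log2 difference 4.96, SE 0.272, adjusted p = 3.49e-11). Socs2 averaged 193 ± 21.4, 0.59 ± 0.84, 0.93 ± 0.684 and 89.5 ± 4.03 CPM in the same lines (log2 difference 5.88, SE 0.289, adjusted p = 9.37e-12). Outside the VQ lines, Ezh2 averaged 60.2 ± 9.67 CPM in t-VK12653 and 47.1 ± 11.8 in Control, so VQ-D5 lay below both. Socs2 averaged 1.05 ± 0.681 CPM in t-VK12653 and 22 ± 7.19 in Control. Cd6 was at 50.5 ± 6.03 CPM in VQ-D2 and 53.5 ± 6.11 in VQ-D5, and under 1 CPM in VQ-D1 and VQ-D4. Ptprc was higher in VQ-D2 than in the mean of the others (log2 difference 4.54, SE 0.186, adjusted p = 2.44e-13), as was Bach2 (log2 difference 6.21, SE 0.492, adjusted p = 1.12e-08).

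Ribosomal protein and p53 genes lay mostly lower in VQ-D2 than in the other VQ lines, and S phase genes mostly higher. Of 38 ribosomal protein genes, 27 were lower and 1 higher (median -0.47), and of 32 oxidative phosphorylation genes 15 were lower and none higher (median -0.21). Rpl8 averaged 1602 ± 116 CPM in VQ-D2, 2082 ± 117 in VQ-D1, 4214 ± 383 in VQ-D4 and 2223 ± 81.4 in VQ-D5. Of 18 p53 genes tested, 13 were lower and 2 higher (median -0.81), with Cdkn1a among the lower ones (log2 difference -3.98, SE 0.37, adjusted p = 5.60e-08), and of 17 ATF4 genes 9 were lower and none higher (median -0.68). Of 24 S phase genes, 18 were higher and none lower (median 0.50), of 24 mitotic genes 10 were higher and 1 lower (median 0.33), and of 30 MYC target genes 16 were higher and 1 lower (median 0.28). Of 19 interferon-stimulated genes 10 were higher and none lower (median 0.53), and of 25 plasma cell genes 14 were lower and 5 higher (median -0.47). These shares stand beside the 27.7% higher and 22.7% lower of all genes.

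Few genes were called between the LN and spleen libraries of VQ-D2. Of 11078 genes tested, 4 were called (0.0361%), 2 higher in LN (0.0181%) and 2 lower (0.0181%), and 690 had an unadjusted p under 0.05. None was a member of a gene list. Cpd, carboxypeptidase D, had 52 and 30.4 CPM in LN and 3.1 and 1.95 CPM in spleen (log2 fold change 4.02, SE 0.351, adjusted p = 0.0133), against 68.8, 66.9 and 31.8 CPM in Control. Tubb6, a beta-tubulin, had 62.2 and 79.1 CPM in LN and 23.3 and 22.5 CPM in spleen (log2 fold change 1.63, SE 0.164, adjusted p = 0.0133). Spon1, a matrix protein, had 1.23 and 1.36 CPM in LN and 11.6 and 13.6 CPM in spleen (log2 fold change -3.27, SE 0.375, adjusted p = 0.0268), against 592, 302 and 296 CPM in Control. Serpini1, neuroserpin, had 38.7 and 40.3 CPM in LN and 78.5 and 88.2 CPM in spleen (log2 fold change -1.08, SE 0.134, adjusted p = 0.0397). The values of the sites did not overlap for any of the 4. With 2 libraries a site the count of calls depended on the fit: it was 198 with recipient as a block, 24 with DESeq2 and 183 with no filter on low counts, and the 4 genes were called in each. In a fit of all 23 libraries with group by tissue, Spon1 (adjusted p = 0.227) and Serpini1 (adjusted p = 0.154) were not called.

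The log2 fold changes against Control were shifted on chromosome 3, where Nras lies. Over its 553 tested genes the median was 0.54, against -0.02 for all genes, and 51.7% of them were called higher and 18.6% lower. The median difference from the Control mean was 0.51 to 0.55 in the 4 VQ-D2 libraries. In bins of 20 Mb along the chromosome the median ran between 0.13 and 0.84, so no bin lay below 0. The lowest median, 0.13, was in the bin from base 100000001 to 120000000, which holds Nras. Of the 98 tested genes in that bin, 39 were called higher and 27 lower. Chromosomes 6, 19 and X had medians of -0.24, -0.22 and -0.20. On the scale of all 23 libraries the chromosome 3 median was 0.57 in VQ-D2, 0.49 in VQ-D5 and 0.06 to 0.11 in VQ-D1, VQ-D4 and t-VK12653. Against the mean of the other VQ lines, the VQ-D2 median was 0.40 on chromosome 3, 0.67 on chromosome 5 and 0.37 on chromosome 8. On chromosome 5, on the scale of all 23 libraries, VQ-D2 lay at 0.11 from the Control mean, and VQ-D1 and VQ-D4 at -0.79 and -0.85. On chromosome 8, VQ-D2 lay at 0.03 on that scale, VQ-D1 at -0.73, VQ-D4 at 0.02 and VQ-D5 at -0.05. At least Nras, Bmpr1b, Psma5, Psmb4, Slc16a1, Tdrkh, Mcl1, Il6ra, Ifi44 and Cks1b lie on chromosome 3, and other named genes may lie there too. The number of DNA copies was not measured.

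**Figure D4:**
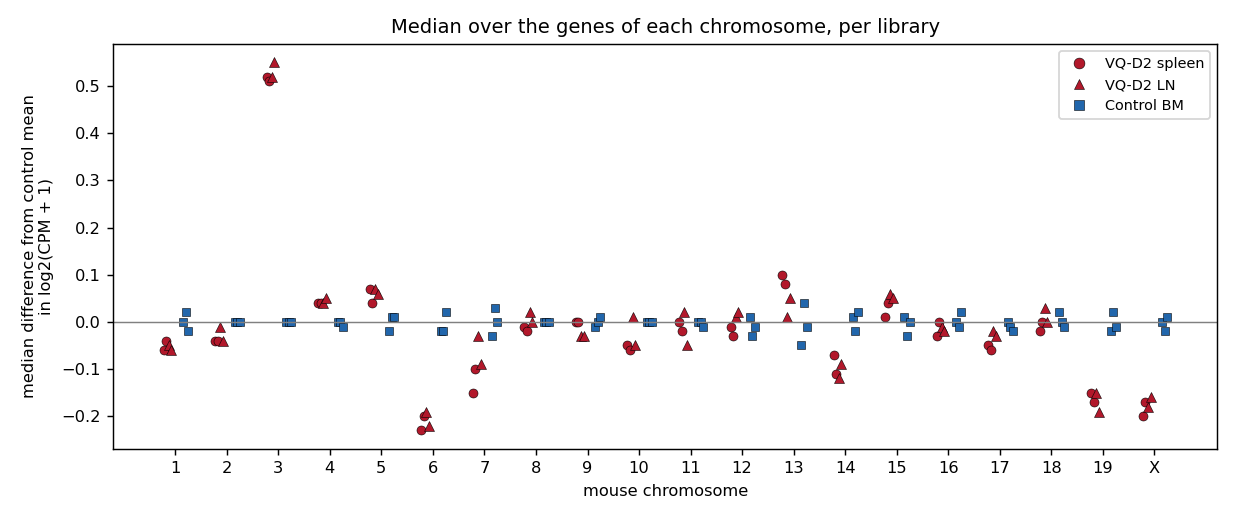
Median over the genes of each chromosome of the difference from the Control mean, in log2(CPM + 1), with 1 point per VQ-D2 and Control library. On chromosome 3 the 4 VQ-D2 libraries lie at 0.51 to 0.55, while the Control libraries lie near 0 on every chromosome drawn.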

How the data were processed

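RNA was measured in 23 mouse libraries, of which the 4 VQ-D2 and 3 Control libraries make the main comparison, and samples were grouped by GEO's labels. Per the labels' protocols, total RNA from a column kit for small samples was made into stranded libraries suited to very low input. The submitters' processing notes name the tools STAR, featureCounts and DESeq2, without versions, and the mouse builds mm10 and GRCm38. No source used here gives the annotation, the strand setting or the handling of reads that match several genes. Per the file headers, each deposited table has 24063 gene symbols with columns of count, FPKM and TPM. The deposited count column holds whole, unnormalized reads per gene and was used for every test. The FPKM values, scaled by the authors to length and depth, were not used, and the TPM values of the authors gave only the most abundant transcripts.

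Counts were analysed in R 4.3.3 with edgeR 4.0.16 (filterByExpr with a count minimum of 10 and a total minimum of 15, TMM scaling, robust quasi-likelihood F-test, Benjamini-Hochberg adjustment, calls at an adjusted p under 0.05). Only the 7 libraries entered the main fit, only the 4 VQ-D2 libraries the LN and spleen fit, and all 23 the fit against other lines, with terms for group and tissue. Standard errors (SE) are the log2 fold change divided by the root of F. A group with no read was set at a floor of 3 reads over the group, 0.134 CPM in VQ-D2 and 0.333 CPM in Control, and 1 to 3 reads gave a ratio with an exact 95% counting interval. Both cover counting error only, because PCR copies cannot be told from independent molecules. Libraries of a group differed by more than sampling noise (chi-square over degrees of freedom 5.105 to 12.93). Each fit was checked on simulated counts of independent libraries with 200 genes changed, equally often up and down. Of the 2-fold changes, 83% were recovered against Control, 72% between sites and 89% against the other VQ lines. False calls made up 2.14%, 5.52% and 4.06% of calls. With so few genes changed, the check does not cover scaling or error rates where most genes differ.

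The gene lists (38, of which 10 hold markers of other cells or states) and the naming rule were chosen with earlier results of these data known. The rule took Myc and Nras, and the 14 highest and 14 lowest called genes with no overlap and a mean of 10 CPM or more in the higher group. It left out predicted, small RNA, histone and sex-linked genes and markers of other cells. It also took up to 4 called members per list, members of defining role or level, the 8 highest and lowest against the other VQ lines, up to 6 each way between sites and the 5 highest by TPM. The germline and DNA methylation lists and the look at chromosomes were added after values had been seen. Positions were found for 11628 of the 11669 tested genes. Overlap with another annotated gene was not looked up for every gene named. Of those named, at least Atp5b, B2m, Bak1, Bcl2, Bcl2l1, Bcl2l11, Ccnd3, Cd74, Cdc20, Cdk4, Ddit3, Gadd45a, Gins2, Hspd1, Map2k1, Ndufa1, Pdia3, Pdia6, Phf1, Rps2, Rpl13a and Rplp2 overlap another annotated gene, so their counts may include its reads. Ms4a1 and Myt1l overlap genes that had no read in VQ-D2 or Control. Alternatives were DESeq2 1.42.0, RLE scaling, other filters, replicates left out, blocks, libraries summed per recipient, single sites and the fit of all 23 libraries. Some genes of the lists are not reported here by name.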

Additional observations from a re-analysis of the deposited data

Results flagged for a closer look

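Of 166 sets of 4 VQ-D2 values examined (named genes and summed lists), 7 had 1 library apart from the other 3 by Dixon's criterion, and chance flags about 1 in 20 such sets. VQ-D2 replicate 1 was apart for Cdc20, a mitotic gene (123.2 CPM), and for Relb, an NF-kB subunit (0.465 CPM). Replicate 2 was apart for Prkaa2, an AMP-activated kinase subunit (46.6 CPM), and for the signalling factor Stat5b (16.6 CPM). Replicate 4 was apart for Ddit3, the stress factor CHOP (4.76 CPM), and for Fn1, fibronectin (7.7 CPM). Replicate 3 was apart for the summed S phase list (2584.3 CPM). The Control group, with 3 libraries, was not examined in this way.

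The 4 genes that differed between the LN and spleen libraries of VQ-D2 in edgeR's quasi-likelihood test were also marked, as differences between sites within 1 line. The log2 fold change of LN over spleen was 4.02 for Cpd, 1.63 for Tubb6, -1.08 for Serpini1 and -3.27 for Spon1, each with 2 libraries a site and the same order in both recipients.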

How the results depend on the processing

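The number of genes called between VQ-D2 and Control was 7970, and over the 19 alternatives it lay between 6919 (LN libraries alone) and 8708 (no filter), within 1.5 times in each. Leaving out 1 library gave 7473 to 7986 calls. Every call shared with the main result kept its direction, for example 7710 of 7741 with DESeq2 and 6843 of 7396 with all 23 libraries and a tissue term. Same-numbered VQ-D2 and Control libraries did not deviate together (correlations -0.091, 0.00614 and 0.0923), so the numbers do not pair them, and a replicate block gave 7236 calls against Control and 6059 against the other VQ lines. Without the genes of chromosome 3, an alternative chosen after seeing the data, 7563 genes were called. Leaving out a library for the bounds of genes with no read in 1 group was also chosen after seeing the data. Over the same alternatives, list counts against Control stayed within 1.5 times in 1370 cases and moved further in 74. List medians moved by less than the SD of the per-library medians of VQ-D2 in 520 cases, and by at least that in 202. Of the values of named genes over all alternatives, 3633 kept direction and side of the threshold, 20 lost the call and 4 gained it. Those lost belong to Cdh2, Serpini1, Syce1 and Rsad2 and, with all 23 libraries and a tissue term, to Blk, Ezh2, Kdm5d, Ncam1, Pecam1, Prkaa2 and Prr19. The sign turned for Hsp90b1 (0.06), which was -0.06 without Control replicate 2, -0.05 without VQ-D2 replicate 4 and -0.05 with the replicate block (-0.06 to 0.23 over libraries left out). It turned for Tdrd7 (-0.15), at 0.12 without Control replicate 2 (-0.32 to 0.12 over libraries left out) and 0.03 with all 23 libraries and a tissue term, and for Cxcl12 (-6.66), at 0.12 with that fit. The cause was not tested.

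Against the other VQ lines, 6483 genes were called, and the alternatives gave 5132 (without VQ-D4) to 6930 (without VQ-D5). Tex19.1 (0.18) turned to -0.4 without VQ-D2 replicate 4 (-0.4 to 0.63 over VQ-D2 libraries left out), -2.0 without line VQ-D1 and -0.52 without line VQ-D4. Between LN and spleen, 4 genes were called in edgeR's test, 4 with RLE scaling, 24 with DESeq2, 183 with no filter, 198 with recipient as a block and 5 with all 23 libraries, of which 2 were shared. Leaving out 1 VQ-D2 library gave 29 to 66 calls, where the lone library of a site is assumed to vary like the others. With 2 libraries a site and the depths given, a gene that was not called may still differ.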
